A study of Mus musculus with 5 samples.

Results

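The cells described here come from a sort for CD4 T cells of injured mouse kidney. They carried RNA of Cxcr6 together with RNA of at least 2 of the 4 genes Itga1, Zfp683, Chst2 and Gpr55. A cell was a member when at least 500 genes were detected in it, less than 10% of its UMIs (unique molecular identifiers, 1 per captured RNA molecule) came from mitochondrial genes, it had at least 1 UMI of Cd4 and of Cxcr6, and it had none of Foxp3, Cd8a and Ncr1. No UMI of a CD3 or T cell receptor gene was required. Of 38417 cells that passed the gene and mitochondrial limits, 4812 were members. They are called resident-like cells below, after their marker genes: Itga1 encodes the integrin alpha 1 chain, a collagen receptor used as a marker of lymphocytes that stay in tissue, and Zfp683 encodes Hobit, a repressor of tissue egress. The choice used measured RNA of these genes, so their own levels are a description and carry no test.

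The series profiled CD4 T cells sorted on CD45, TCR beta, CD4, CD25 and CD127 from kidneys of mice after ischemia-reperfusion injury, an interruption and return of renal blood flow, and its title names ST2+ regulatory T cells in the inflammation and fibrosis that follow. ST2 is the receptor of the alarmin IL-33 and is encoded by Il1rl1. Single-cell RNA was captured from the 3′ end in 5 libraries. In 3 knockout libraries the mice carried the floxed allele and the Cre driver, labelled Il1rl1fl/fl Foxp3YFP-Cre, and in 2 control libraries they carried the floxed allele alone, labelled Il1rl1fl/fl. All mice were 10 weeks old, all kidneys had the injury, and no uninjured library was analysed here. The Cre is driven from Foxp3, the gene of the master regulator of regulatory T cells, so the deletion was directed at regulatory T cells and not at the resident-like cells, which were gated to have no Foxp3 UMI. The Foxp3YFP-Cre allele was present in the knockout mice only, so its effect and that of losing Il1rl1 cannot be told apart. The labels do not say that the libraries came from separate animals, so the p-values measure the spread between libraries, which may be technical.

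Tissue-resident memory T cells settle in an organ after inflammation and do not return to the blood. They lower the receptors and regulators of tissue exit, among them S1pr1, Ccr7 and the transcription factor Klf2 that drives S1pr1, and many carry CD69, CXCR6 and a collagen- or epithelium-binding integrin. Th1 cells are the CD4 T cells that use T-bet (Tbx21) and make interferon-gamma, while Th17 cells make IL-17 and carry the receptors for IL-23, IL-1 and the chemokine CCL20.

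Library depth differed. Retained cells had a median of 4115.5 to 7546 UMIs in knockout libraries, against 13534 in control 1 and 3786 in control 2, and control 1 alone held 152275841 UMIs, against 31104939 to 60421178 in the other 4. Between 2 and 39 cell barcodes were shared by any pair of libraries. The targeted gene did not separate the labels: in CD4 cells with a Foxp3 UMI, Il1rl1 was at 124, 52.1 and 43.0 CPM (UMI counts scaled per-million, so that library totals are equal) in knockout 1, 2 and 3 and at 74.3 and 50.2 CPM in control 1 and 2. The groups overlapped, and 57.3%, 25.9% and 21.1% of those cells had an Il1rl1 UMI in the knockout libraries, against 32.0% and 20.2% in the controls. The labels do not give the deleted exons, and reads from the 3′ end of a transcript that lacks other exons are still counted, so the value does not check the genotype. Knockout and control below mean the libraries labelled so.

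The resident-like cells numbered 736, 745 and 537 in knockout 1, 2 and 3, and 2176 and 618 in control 1 and 2. Control 1, the deepest library, held the most. Their median UMI count was 10258, 7808 and 8970 in the knockout libraries and 18146.5 and 7655 in the controls, above the median of all retained cells in each library. A median of 1.2 to 1.5% of their UMIs was mitochondrial. A narrower set of members had a UMI of Cd3e, Cd3d or Trac and none of C1qa, Lyz2, Adgre1, Cd79a and Ms4a1. It held 554, 502 and 370 cells in knockout 1, 2 and 3 and 1572 and 463 in control 1 and 2. The remaining members lacked a T cell UMI or carried a macrophage or B cell UMI.

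Most members met the threshold with exactly 2 of the 4 marker genes: 65.2%, 74.5% and 65.7% in the knockout libraries, and 47.2% and 73.5% in control 1 and 2. All 4 genes were found in 7.74%, 4.16% and 4.28% of members in the knockout libraries, and in 14.8% and 3.88% in the controls. Control 1 had the largest share with 3 or 4 genes, and it also had the deepest cells.

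Itga1, on chromosome 13 (GENCODE M21 annotation of mm10, 114953096 to 115101964, minus strand), was at 203, 145 and 134 CPM in members of knockout 1, 2 and 3 and at 150 and 168 CPM in members of control 1 and 2. Zfp683, on chromosome 4 (134053838 to 134058996, plus strand), was at 71.2, 69.5 and 76.9 CPM in knockout members and at 79.8 and 89.3 CPM in control members. Chst2, a sulfotransferase that modifies cell-surface sugars (chromosome 9, 95399292 to 95406722, minus strand), was at 60.7, 76.1 and 105 CPM in knockout members and at 108 and 119 CPM in control members. For Zfp683 and Chst2 every knockout library was below both controls, by a small margin, while for Itga1 the groups overlapped. Groups did not overlap for 2290 of 11892 genes tested in members (19.3%), and the choice of cells sets part of the levels given here. Gpr55, a lipid-sensing receptor (chromosome 1, 85938318 to 85961007, minus strand), was at 57.4, 57.6 and 59.7 CPM in knockout members and at 51.9 and 63.7 CPM in control members. Cxcr6, the receptor of CXCL16 (chromosome 9, 123806475 to 123811760, plus strand), was at 438, 424 and 358 CPM in knockout members and at 419 and 401 CPM in control members.

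In the other retained cells of the same libraries these genes were lower, as the choice of cells fixes: Itga1 was at 84.3, 43.1 and 47.4 CPM in the knockout libraries and 41.8 and 46.4 CPM in the controls. Zfp683 was there at 13.6, 16.8 and 20.1 CPM in the knockout libraries and at 20.2 and 18.1 CPM in the controls. Fgl2, an effector molecule of lymphocytes that was named as a further marker but not used in the choice, was at 109, 99.2 and 119 CPM in knockout members and at 143 and 132 CPM in control members. In the other retained cells Fgl2 was at 83.3, 69.9 and 65.9 CPM in knockout libraries and 65.2 and 68.5 CPM in controls. Members were thus above the other cells for Fgl2 in all 5 libraries. It was named with these data in view and is given as a description.

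A UMI count depends on depth, so detection was also read after each cell had been thinned to 2000 UMIs. At that depth 3.38 to 10.4% of Cxcr6+ CD4 cells had at least 2 of the 4 marker genes, against 1.79 to 2.94% of CD4 cells without a Cxcr6 UMI. Itga1 was found in 11.3 to 25% of the Cxcr6+ CD4 cells and in 5.31 to 10.2% of those without Cxcr6. Zfp683 was found in 5.90 to 12% of the Cxcr6+ CD4 cells and in 3.65 to 5.28% of those without Cxcr6. In cells gated as B cells (UMIs of Cd79a and Ms4a1, none of Cd3e; 6 to 33 cells a library), which should lack the combination, 0 to 1.08% had at least 2 marker genes, although so few cells allow a share of up to 10.3% in control 2 and 50% in knockout 2 where none was seen. In those B cells, at the same 2000 UMIs, Itga1 was found in 0 to 8.67% and Cxcr6 in 3.48 to 25.2%, so single-gene shares of that size are read as background.

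At this depth most cells with a given marker gene lacked each of the others. In most libraries a marker gene was still found somewhat more often in cells with another marker gene than in cells without it. Of 60 ordered pairs of marker genes by library, the first gene was more often found in cells with the second than in cells without it in 54. These count each pair in both orders, which give the same direction, so they are not 60 separate comparisons. Itga1 was found in a mean of 23.7% of Cxcr6+ CD4 cells with Zfp683, against 17.0% of those without, higher in 5 of 5 libraries. Chst2 and Itga1 did not go together: Itga1 was found in 17.8% of cells with Chst2 and in 17.5% of cells without it, higher in 3 of 5 libraries. Zfp683 was found in 11% of cells with Chst2 and in 8.13% of those without, higher in 5 of 5. Pairs in 1 library share its cells and depth, and these shares carry no test.

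Other genes changed in steps with the number of marker genes. Over the 5 libraries Cxcr6+ CD4 cells with 0, 1, 2, 3 and 4 marker genes had on average 56.3, 83.9, 114.6, 119.9 and 139.5 CPM of Fgl2, and 104.8, 136.4, 166.8, 183.2 and 218.5 CPM of Chn2, a GTPase-activating protein. Il23r, the IL-23 receptor chain, ran the other way, at 48.1, 23.1, 11.4, 8.7 and 8.8 CPM, as did Ccr6, the CCL20 receptor, at 38.6, 19.6, 11.3, 7.9 and 5.7 CPM. Il7r, the IL-7 receptor of long-lived T cells, was at 505, 396.7, 324, 273.2 and 292.1 CPM. Cells just outside the threshold (1 marker gene, 4642 cells) therefore lay between cells with none and members just inside it (2 marker genes) for each of these 5 genes. Cd3e, a CD3 chain needed for receptor signalling, was level, at 421.9, 424.7, 419, 406.8 and 427.9 CPM. Median UMI counts rose over the same steps, for example 4907.5, 5717.5, 7058, 12505 and 11053 in knockout 2, and the part of depth in these steps was not tested.

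**Figure D1:**
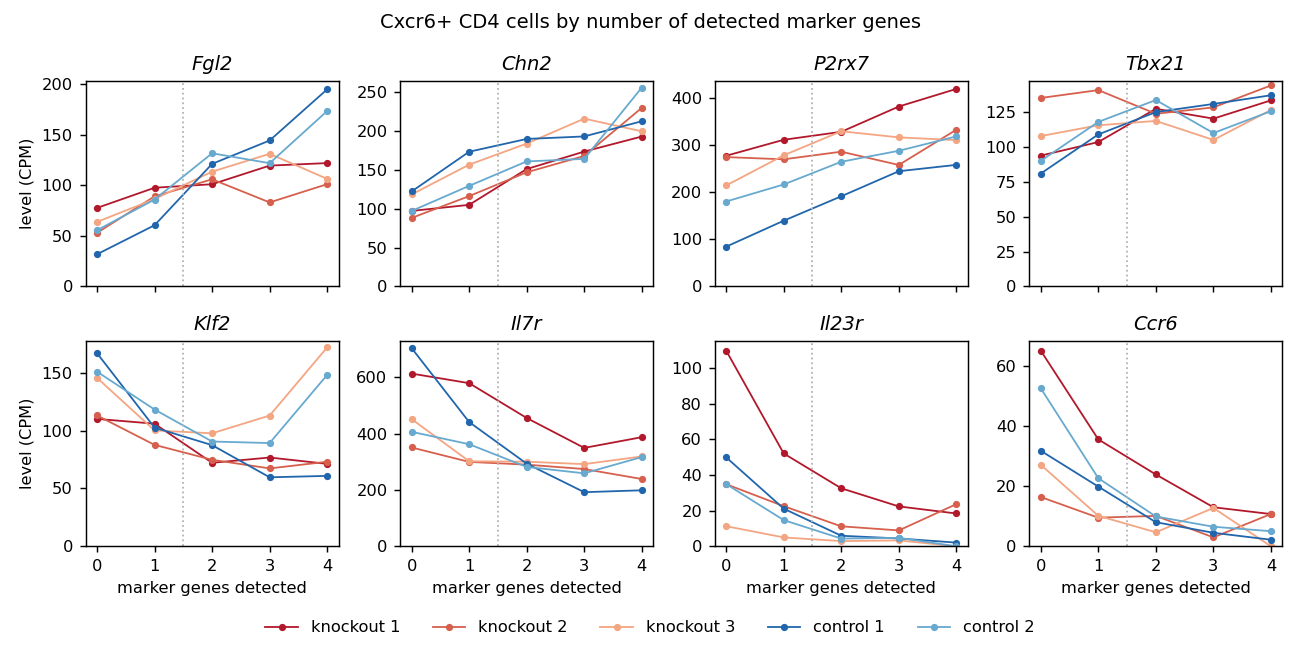
Each panel plots 1 gene in CPM (y axis, linear, from 0) in Cxcr6+ CD4 cells by the number of marker genes found in the cell (x axis, 0 to 4). Each line is 1 library, knockout or control by colour, and the dotted line between 1 and 2 is the member threshold. On average Fgl2, Chn2 and P2rx7 run upward and Il7r, Il23r and Ccr6 run downward, with cells of 1 marker gene between.

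Resident-like cells were then set against Cxcr6+ CD4 cells of the same library that had no UMI of any of the 4 marker genes and no Foxp3, Cd8a or Ncr1 (comparison cells). Comparison cells were drawn within UMI deciles of the members to bring depth closer, leaving 446, 606 and 356 in the knockout libraries and 686 and 493 in the controls. Counts were summed per library and set, and edgeR's quasi-likelihood test with a term for the library was run on 11202 genes, with Benjamini-Hochberg adjustment at 0.05. Resident-like cells had 298 higher genes (2.66% of those tested) and 380 lower genes (3.39%). These 2 shares are the background for the list counts below. Of 11195 genes outside the choice and Fgl2, 5687 had a log2 difference above 0. The drawing left comparison cells shallower, with median UMI counts of 10258, 7808, 8970, 18146.5 and 7655 in members of knockout 1, 2 and 3 and control 1 and 2, against 8553, 6688.5, 6060.5, 13460.5 and 6663 in comparison cells. A second fit, added after seeing the data, cut both sets to the same number of cells in each decile (called both matched below). It is named below where it ended a call or gave a new one. CPM values in the comparisons that follow are after edgeR's TMM scaling.

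The clearest difference was in Th17 genes. All 8 tested genes of a Th17 list were lower in resident-like cells, with a median log2 difference of -1.60, against 0.00 over all genes (379 of 11195 lower). Il23r was at 27.3, 11 and 2.80 CPM in members of knockout 1, 2 and 3 and at 4.70 and 4.13 CPM in members of control 1 and 2, against 117, 44.2 and 9.55 CPM in knockout comparison cells and 53.6 and 35.9 CPM in control comparison cells (log2 difference -2.60, SE 0.23, edgeR adjusted p = 5.1e-04). Ccr6 was at 18.7, 7.95, 7.09, 5.68 and 8.59 CPM in members of knockout 1, 2 and 3 and control 1 and 2, against 71.2, 17.6, 27.9, 34.1 and 58.5 CPM in comparison cells (-2.14, SE 0.19, edgeR adjusted p = 5.1e-04). Members were below comparison cells of the same library in all 5 for both genes, which was a condition of naming them by rank. Il23r varied widely between libraries, with knockout 1 highest in both sets.

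Il1r1, the IL-1 receptor, was at 11.7, 1.17, 2.80, 3.93 and 2.48 CPM in members and 56.9, 8.08, 6.11, 11.6 and 14.5 CPM in comparison cells, in the same library order (-2.02, SE 0.20, edgeR adjusted p = 0.00089). Il17re, a chain of the IL-17C receptor and not on the list, was at 13.2, 3.27, 0.824, 0.893 and 2.64 CPM in members, against 51.0, 7.47, 3.82, 6.65 and 18.4 CPM in comparison cells (-2.19, SE 0.23, edgeR adjusted p = 0.0014). Knockout 1 had the highest level of both genes in both sets. Members were lower in every library, as naming by rank required. Il17a, Il17f and Il22 had too few counts to be tested. The number of lower Th17 genes was 4 without knockout 1, 5 without control 2 and 5 without knockout 3, and 7 with both sets matched. The comparison cells, which had none of the 4 marker genes, can include Th17 cells, so a lower level in members and fewer Th17 cells among them cannot be told apart.

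The promoters of these receptors are shown because the 4 genes were lower together, with the letters AGGTCA marked, a half-site that many nuclear receptors bind. Each run is 300 bases from RefSeq on GRCm38.p6, 250 before and 50 from the gene's start, 5′ to 3′ on the gene's strand, with AGGTCA on either strand (TGACCT on the other) in capitals. The windows are chr17:8235793-8236092 on the plus strand for Ccr6, chr6:67491806-67492105 on the minus strand for Il23r, chr6:113458521-113458820 on the plus strand for Il17re and chr1:40224830-40225129 on the plus strand for Il1r1.
Ccr6: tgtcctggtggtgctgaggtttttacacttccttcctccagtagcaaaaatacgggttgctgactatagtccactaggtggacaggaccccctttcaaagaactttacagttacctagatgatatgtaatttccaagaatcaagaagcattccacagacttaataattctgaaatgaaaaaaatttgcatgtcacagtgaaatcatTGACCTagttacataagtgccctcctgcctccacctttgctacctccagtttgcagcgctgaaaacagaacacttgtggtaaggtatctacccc
Il23r: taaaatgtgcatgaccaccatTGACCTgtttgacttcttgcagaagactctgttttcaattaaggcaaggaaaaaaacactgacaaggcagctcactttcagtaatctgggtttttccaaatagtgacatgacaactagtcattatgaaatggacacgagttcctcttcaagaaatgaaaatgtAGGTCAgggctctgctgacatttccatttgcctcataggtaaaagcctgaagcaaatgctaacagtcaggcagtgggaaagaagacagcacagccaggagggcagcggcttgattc
Il17re: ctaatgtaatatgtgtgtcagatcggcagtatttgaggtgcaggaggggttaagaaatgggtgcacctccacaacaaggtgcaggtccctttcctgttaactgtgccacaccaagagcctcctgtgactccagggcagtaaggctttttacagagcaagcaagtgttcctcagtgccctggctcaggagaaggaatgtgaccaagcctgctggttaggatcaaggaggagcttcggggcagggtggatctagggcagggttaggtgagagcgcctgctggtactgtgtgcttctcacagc
Il1r1: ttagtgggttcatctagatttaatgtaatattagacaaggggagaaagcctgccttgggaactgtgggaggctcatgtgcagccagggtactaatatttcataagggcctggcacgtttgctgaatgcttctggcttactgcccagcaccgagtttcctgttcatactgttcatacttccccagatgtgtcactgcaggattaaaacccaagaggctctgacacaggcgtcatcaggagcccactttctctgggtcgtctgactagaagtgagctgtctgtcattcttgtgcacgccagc
Ccr6 held 1 match, Il23r 2, and Il17re and Il1r1 none. The letters occur in 4335 of 27025 promoters of that length (16.0%). A match is a description of the letters and not a bound site.

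**Figure D2:**
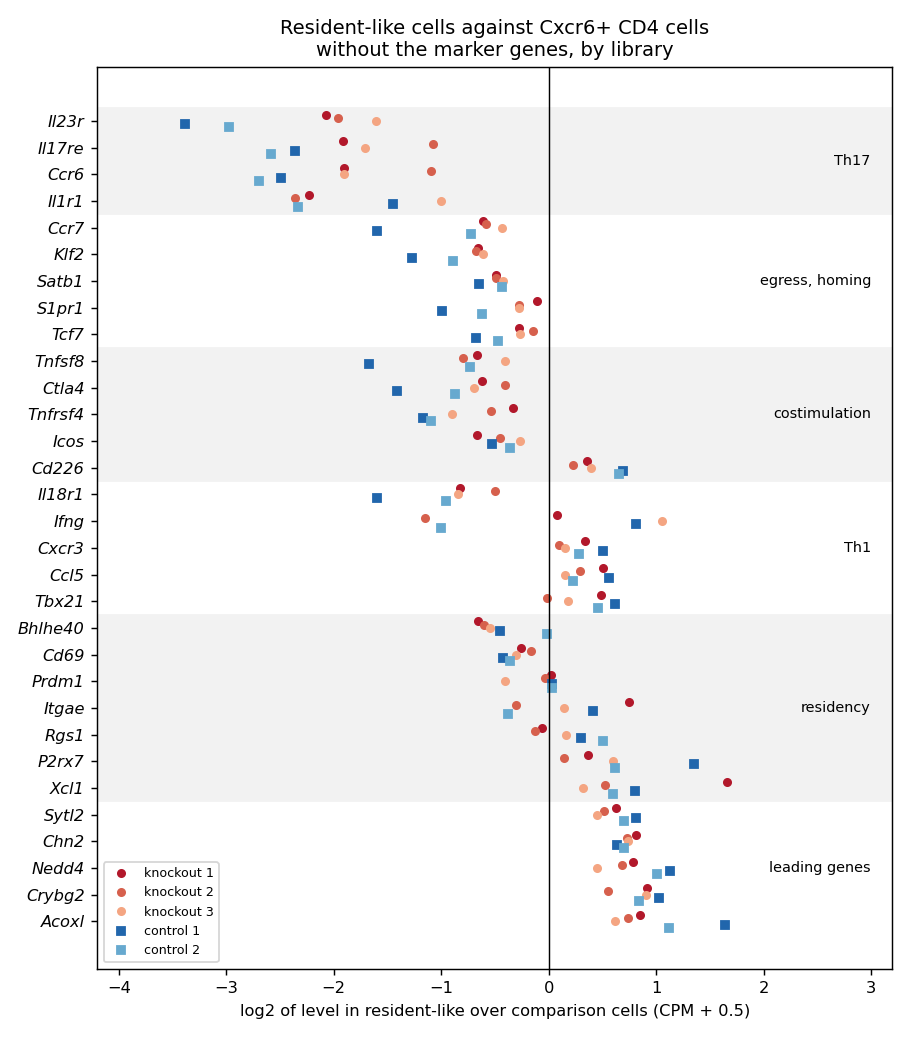
Log2 ratio of resident-like cells over comparison cells (x axis, from CPM + 0.5) for named genes (y axis, grouped by role), 1 point per library, circles for knockout and squares for control. Th17 and egress genes lie left of 0 in each library, and the leading genes Sytl2, Chn2, Nedd4, Crybg2 and Acoxl lie right of it. For the Th17 genes shown, Satb1 and the leading genes, 1 sign in all libraries was a condition of naming them.

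Genes of an egress and lymph node homing list were the next group. The genes given below include some of other roles, such as Satb1 and Cmah. Of 16 tested genes 12 were lower and none higher, with a median of -0.50. Klf2, the regulator of egress receptors, was at 72.5, 71.0 and 106 CPM in members of knockout 1, 2 and 3 and at 72.7 and 93.5 CPM in members of control 1 and 2, against 114, 113, 162, 176 and 174 CPM in comparison cells in the same library order (-0.85, SE 0.09, edgeR adjusted p = 0.0016). Satb1, a chromatin organiser of T cell development, was at 114, 133, 114, 89.2 and 184 CPM in members and 160, 187, 153, 140 and 248 CPM in comparison cells (-0.50, SE 0.05, edgeR adjusted p = 0.00056). Members were below their own comparison cells in all 5 libraries for both, which was a condition of naming Satb1 by rank. Rasgrp2 (-0.50, edgeR adjusted p = 0.0046), an activator of integrin-dependent adhesion, and Cmah (-0.61, 0.0058), a sialic acid enzyme, were lower too. Gpr183, an oxysterol receptor that guides cells in lymphoid tissue and stood on the chemokine receptor list, was at 125, 93.4, 114, 124 and 71.2 CPM in members and 197, 127, 171, 322 and 138 CPM in comparison cells (-0.83, SE 0.12, edgeR adjusted p = 0.0057).

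S1pr1, the sphingosine-1-phosphate receptor that leads cells out of tissue, was at 63.7, 66.4, 70.4, 66.6 and 69.4 CPM in members, against 68.7, 80.6, 85.2, 133 and 107 CPM in comparison cells (-0.49, edgeR adjusted p = 0.034). Members kept within a narrow range while comparison cells were higher in the controls than in the knockouts. The S1pr1 call was lost without control 2 (-0.46, adjusted p = 0.131) and without knockout 3 (-0.54, 0.0751), and without control 1 the difference was -0.33 (0.034). Ccr7, a lymph node homing receptor, was at 15.7, 11.7, 23.9, 14.5 and 28.8 CPM in members and 24.2, 17.8, 32.5, 44.8 and 47.7 CPM in comparison cells (-0.89, edgeR adjusted p = 0.015), and its call was lost without control 2 (-0.92, 0.0603) and against all comparison cells (-0.67, 0.071). Il7r, the receptor of the survival cytokine IL-7, was at 409, 276, 292, 239 and 276 CPM in members, against 604, 367, 415, 739 and 445 CPM in comparison cells (-0.77, edgeR adjusted p = 0.017), and was not called without control 2 (-0.78, 0.0705). The number of lower egress genes was 5 without control 2.

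The residency list did not move as a whole. Of 19 tested genes 3 were higher and 3 lower, with a median of 0.09. The 3 lower genes were Icos, Cd69 and Bhlhe40. The integrin alpha E gene Itgae, which encodes CD103, was at 6.05, 5.96 and 5.11 CPM in members of knockout 1, 2 and 3 and at 4.68 and 5.78 CPM in members of control 1 and 2, against 3.39, 7.47, 4.58, 3.38 and 7.68 CPM in comparison cells (0.14, edgeR adjusted p = 0.788). Cd69, which holds S1PR1 off the surface, was at 131, 103, 156, 117 and 92.5 CPM in members and 156, 115, 193, 157 and 119 CPM in comparison cells (-0.30, edgeR adjusted p = 0.0085), lower in members in all 5 libraries. Its difference was -0.19 with both sets matched and was then not called (adjusted p = 0.0876). Bhlhe40, a factor of resident and cytokine-making T cells, was lower too (-0.48, SE 0.08, edgeR adjusted p = 0.012), at 56.5, 75.9, 57.2, 50.9 and 50.9 CPM in members and 89.7, 115, 83.6, 70.0 and 51.3 CPM in comparison cells, nearly equal in control 2.

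P2rx7, the ATP receptor of resident T cells, was at 352, 275 and 318 CPM in members of knockout 1, 2 and 3 and at 227 and 274 CPM in members of control 1 and 2, against 272, 249, 210, 88.8 and 178 CPM in comparison cells (0.62, edgeR adjusted p = 0.029). Members were higher in all 5 libraries, but the P2rx7 call was lost without control 2 (0.61, adjusted p = 0.108), without knockout 3 (0.62, 0.0971) and with DESeq2. Xcl1, a chemokine for dendritic cells, was at 54.1, 38.5, 50.1, 63.6 and 69.7 CPM in members and 16.7, 26.7, 40.1, 36.2 and 45.8 CPM in comparison cells (0.78, edgeR adjusted p = 0.015). The Xcl1 call was lost without control 2 (0.83, 0.0602) and with both sets matched (0.60, 0.052), and against cells with 1 marker gene the difference was -0.14. Prdm1, which encodes Blimp1, differed by -0.05, and Rgs1 and Runx3 by 0.15 and 0.12 (edgeR adjusted p = 0.342 and 0.163). With both sets matched Rgs1 and Runx3 were called higher (0.26 and 0.19, adjusted p = 0.014 and 0.026). The number of higher residency genes was 0 without control 2.

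Of the Th1 list, 3 of 23 tested genes were higher and 4 lower, with a median of 0.01, and the number higher ran between 1 and 6 with 1 library left out (1 without control 2, knockout 1 or knockout 3, 6 without knockout 2). Tbx21, the Th1 master regulator, was at 124, 123 and 112 CPM in members of knockout 1, 2 and 3 and at 131 and 126 CPM in members of control 1 and 2, against 88.3, 124, 98.9, 85.0 and 91.4 CPM in comparison cells (0.36, SE 0.08, edgeR adjusted p = 0.036). Knockout 2 had nearly the same level in both sets. The Tbx21 call was lost without control 1 (0.27, adjusted p = 0.0798), control 2 (0.33, 0.135), knockout 1 (0.32, 0.107) or knockout 3 (0.39, 0.077), and held with both sets matched (0.51). Cxcr3, the Th1 chemokine receptor, was at 237, 195, 216, 279 and 225 CPM in members and 187, 182, 194, 196 and 185 CPM in comparison cells (0.28, edgeR adjusted p = 0.024), and its call was lost without control 2 (0.28, 0.0904), knockout 1 (0.27, 0.0672) or knockout 3 (0.31, 0.0544). Ccl5, a chemokine of effector T cells, was at 680, 610, 754, 946 and 744 CPM in members and 478, 498, 677, 639 and 635 CPM in comparison cells (0.35, SE 0.06, edgeR adjusted p = 0.013), and kept its call with any 1 library left out but not against all comparison cells (0.17, 0.27).

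The cytokine that names Th1 cells did not differ detectably. Ifng was at 39.9, 76.7, 59.2, 40.2 and 46.4 CPM in members, against 37.7, 170, 28.3, 22.6 and 93.3 CPM in comparison cells (-0.15, edgeR adjusted p = 0.846). Comparison cells ranged more widely than members. Il18r1, a chain of the IL-18 receptor, was lower: 279, 415, 143, 121 and 127 CPM in members and 494, 586, 257, 367 and 247 CPM in comparison cells (-0.95, SE 0.12, edgeR adjusted p = 0.0044). Its partner Il18rap (-0.54, edgeR adjusted p = 0.0051) and the cytokine gene Lta (-0.73, 0.0085) were lower as well. Gzma (0.23), Zbtb16 (0.78), Klrb1c (0.06), Tnf (-0.19), Il2 (0.44), Il12rb2 (0.47), Csf1 (-0.54) and Csf2 (-0.27) did not pass. Of the Th1 genes, Tbx21, Cxcr3 and Ccl5 were thus higher within the limits above. Against cells with 1 marker gene, Cxcr3 and Ccl5 were not called (0.13 and 0.17, edgeR adjusted p = 0.162 and 0.088). Ifng did not differ detectably, Il18r1, Il18rap and Lta were lower, and the Th1 list did not move as a whole. For residency, genes of the egress list were lower, within the limits given for S1pr1 and Ccr7. The residency list did not move as a whole.

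Cytotoxic genes were higher in 2 of 13 tested and lower in none, and Ctsw alone kept its call with any 1 library left out. Ctsw, a protease of cytotoxic lymphocytes, was at 259, 291 and 253 CPM in members of knockout 1, 2 and 3 and at 260 and 280 CPM in members of control 1 and 2, against 156, 258, 174, 137 and 187 CPM in comparison cells (0.59, SE 0.09, edgeR adjusted p = 0.0066). Members lay in a narrow band, and the comparison cells of knockout 2 came nearest to it. Gzmb, which encodes granzyme B, did not pass (0.66, edgeR adjusted p = 0.26): it was at 31.6, 16.3, 60.2, 23.7 and 51.9 CPM in members and 21.2, 18.0, 44.3, 3.38 and 49.4 CPM in comparison cells. Nkg7, a granule protein, did not pass either (0.42, adjusted p = 0.0523), though it was called with both sets matched (0.61). Of the killer receptor list 2 of 12 were higher, among them the killer cell receptor Cd160 (1.34), a call lost without control 2 (1.31, adjusted p = 0.0738), without knockout 3 (1.36, 0.0654) and with both sets matched (0.86, 0.153), and the number higher was 3 without control 2 and 0 without knockout 3.

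Costimulatory and inhibitory receptors were more often lower than higher. Of 19 tested 1 was higher and 5 were lower (median -0.27). Ctla4, the inhibitory receptor of CD80 and CD86, was at 59.8, 31.6, 47.2, 29.3 and 32.2 CPM in members and 92.2, 42.0, 76.4, 78.7 and 59.3 CPM in comparison cells (-0.85, SE 0.13, edgeR adjusted p = 0.0066). Icos was at 165, 175, 132, 147 and 141 CPM in members, against 263, 239, 158, 212 and 181 CPM in comparison cells (-0.47, SE 0.06, edgeR adjusted p = 0.0034). Tnfrsf4, which encodes OX40, was at 74.6, 92.5, 72.5, 40.4 and 44.8 CPM in members and 94.0, 135, 136, 91.5 and 96.3 CPM in comparison cells (-0.81, SE 0.11, edgeR adjusted p = 0.0055). Each of the 3 was lower in members of every library and kept its call with any 1 library left out. Tnfsf8, the ligand of CD30, was lower too (-0.90, SE 0.15, edgeR adjusted p = 0.0099). Cd226, the activating receptor DNAM-1, was the higher one, at 764, 705, 813, 959 and 734 CPM in members and 597, 602, 618, 594 and 465 CPM in comparison cells (0.47, SE 0.07, edgeR adjusted p = 0.0058). Pdcd1 (-0.35) and Lag3 (-0.70) did not pass.

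Genes of regulatory T cells were lower although both sets had no Foxp3 UMI. All 5 tested genes of a regulatory T cell list, which shares Ctla4 and Tnfrsf4 with the receptors above, were lower (median -0.81), among them Il2ra, which encodes CD25, at 33.3, 23.8, 26.4, 7.40 and 9.42 CPM in members and 45.9, 40.2, 38.2, 16.2 and 23.6 CPM in comparison cells (-0.80, SE 0.12, edgeR adjusted p = 0.0077). The list summed to 325 to 348 CPM in knockout members and 204 to 206 CPM in control members, against 423 to 490 CPM in knockout comparison cells and 350 to 408 CPM in control comparison cells. Ikzf2, which encodes Helios, was at 169, 187, 167, 129 and 113 CPM in members and 185, 244, 231, 238 and 172 CPM in comparison cells (-0.50, edgeR adjusted p = 0.013), and was not called without control 2 (-0.48, 0.0623). The number of lower genes on the list was 3 without control 2. The part of regulatory T cells with missed Foxp3 RNA in these differences was not tested.

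The genes most firmly higher in resident-like cells were outside these lists. Chn2 was at 161, 154 and 193 CPM in members of knockout 1, 2 and 3 and at 198 and 167 CPM in members of control 1 and 2, against 91.5, 92.7, 115, 127 and 103 CPM in comparison cells (0.72, SE 0.04, edgeR adjusted p = 1.8e-05). Sytl2, a Rab27 effector of granule exocytosis, was at 171, 168, 157, 183 and 179 CPM in members and 111, 117, 115, 104 and 110 CPM in comparison cells (0.63, SE 0.06, edgeR adjusted p = 0.00051). For both genes the lowest member value was above the highest comparison value. Nedd4, a ubiquitin ligase, was at 51.0, 54.4, 52.8, 56.6 and 68.4 CPM in members, against 29.4, 33.7, 38.6, 25.7 and 33.8 CPM in comparison cells (0.85, SE 0.09, edgeR adjusted p = 0.0020). Foxo3, a transcription factor of T cell quiescence and survival, was at 103, 91.5, 87.7, 112 and 115 CPM in members and 68.0, 68.5, 77.1, 76.2 and 80.1 CPM in comparison cells (0.47, SE 0.06, edgeR adjusted p = 0.0044).

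Acoxl, related to peroxisomal acyl-CoA oxidases, was at 53.2, 44.8, 49.6, 58.5 and 61.6 CPM in members, against 29.4, 26.7, 32.1, 18.4 and 28.0 CPM in comparison cells (1.05, SE 0.13, edgeR adjusted p = 0.0039). Dock5, a Rac exchange factor, was at 124, 141, 130, 172 and 146 CPM in members and 70.9, 110, 91.7, 75.1 and 85.1 CPM in comparison cells (0.75, SE 0.10, edgeR adjusted p = 0.0053). Both were higher in members of every library, as naming by rank required, and the sets did not overlap. Crybg2 was at 43.4, 38.8, 42.5, 47.6 and 39.3 CPM in members, against 22.8, 26.3, 22.5, 23.1 and 21.7 CPM in comparison cells (0.87, SE 0.08, edgeR adjusted p = 0.00075). It starts 1818 bases after the end of Zfp683 on the same strand, so reads past the end of Zfp683, a gene of the choice, could be counted in it; this was not tested. Also higher were the phosphatase Ptprj (0.52), Rcbtb2 (0.55), the small GTPase Rhoc (0.69), Sntb2 (0.45) and, at low level, Cacng8 (1.21). Of the 24 genes named by rank, 12 in each direction, the 24 kept their call with each library left out in turn and with DESeq2, and 23 with both sets matched, Cmss1 being the exception. Against cells with 1 marker gene 16 kept it, and with the gate applied after thinning 9 of the 16 that could be tested did.

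Some members of broader groups were lower in resident-like cells. Of 31 tested effector transcription factors 12 were lower and 2 higher (median -0.26), with Batf, which works with interferon regulatory factors in activated T cells (-0.45, edgeR adjusted p = 0.0080), and Maf (-0.31, 0.017) among those lower, and without control 2 the numbers were 6 lower and 0 higher. Type I interferon genes were lower in 7 of 15 (median -0.22). Their number was 2 without control 2, knockout 1 or knockout 3 and 3 without control 1, and the antiviral genes Ifit3 (-0.73, edgeR adjusted p = 0.0087) and Isg15 (-0.45, 0.013) kept their calls in each case. Immediate early genes, which mark recent stimulation or handling, were lower in 5 of 23 and higher in 1, with Junb at -0.48 (edgeR adjusted p = 0.0046). The number lower was 2 without control 2, 3 without knockout 1 and 1 without knockout 3.

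Relatives of Gpr55, the receptors of lysophospholipids and other lipids, were mixed, with 2 of 18 higher and 4 lower. Lpar6, a lysophosphatidic acid receptor, and Ptger4, a prostaglandin E2 receptor, were higher (0.36 and 0.39, edgeR adjusted p = 0.0072 and 0.0077) and kept their calls with any 1 library left out. S1pr1, described above, was among the 4 lower, whose number was 0 without control 2, 1 without control 1 or knockout 3 and 2 without knockout 1 or knockout 2. Of 16 sugar-modifying genes related to Chst2, 3 were higher and none lower, but the number was 0 without control 2 and 1 without knockout 3. Of 18 integrin and adhesion genes 3 were higher and 3 lower (1 each without control 2), and Icam1, the ligand of the integrin LFA-1, was lower (-0.37, edgeR adjusted p = 0.014). In the list of cytokine receptors for survival 1 of 16 was higher, the pro-apoptotic gene Bcl2l11 (0.44, edgeR adjusted p = 0.011), and 4 were lower, among them Il2ra and Il7r (2 without control 2).

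Cell cycle genes were higher in 6 of 18 tested and lower in none (median 0.52, all 18 above 0). Mki67, the proliferation marker, was at 439, 626 and 974 CPM in members of knockout 1, 2 and 3 and at 531 and 661 CPM in members of control 1 and 2, against 410, 436, 594, 140 and 414 CPM in comparison cells (0.78, edgeR adjusted p = 0.046). Control 1 had by far the lowest comparison value. The Mki67 call was lost without control 2 (0.80, adjusted p = 0.135), knockout 2 (0.84, 0.0614) or knockout 3 (0.79, 0.136), and without control 1 the difference was 0.50 (0.00736). With both sets matched 1 of the 18 was higher (median 0.13) and Mki67 did not pass (0.43, 0.114). The number higher was 0 without control 2 and 2 without knockout 3. In summed CPM, the cell cycle list was at 1887 to 3894 in knockout members and 2181 to 2626 in control members, against 1751 to 2763 in knockout comparison cells and 826 to 1917 in control comparison cells.

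Other cell types were read through their markers. T cell identity genes summed to 5028 to 5344 CPM in knockout members and 5400 to 5698 CPM in control members. The median difference from comparison cells over 9 genes was 0.02, and none passed. With both sets matched Cd3e, Cd3g, Trac and Lck were called higher (0.19, 0.20, 0.20 and 0.15, edgeR adjusted p = 0.013, 0.0059, 0.0055 and 0.038). The rest of that list was not called. Macrophage genes summed to 1464 to 1952 CPM in knockout members and 701 to 1426 CPM in control members, against 912 to 1783 CPM in knockout comparison cells and 503 to 1437 CPM in control comparison cells. All 12 tested were above 0 without passing (median 0.19), and 6 were lower with both sets matched (median -0.47). B cell genes summed to 203 to 7888 CPM in knockout members and 1217 to 2605 CPM in control members, against 164 to 430 CPM in knockout comparison cells and 361 to 815 CPM in control comparison cells. Among members the B cell sum was highest in knockout 1 and lowest in knockout 3. The median difference over its 8 genes was -0.31: Cd79a differed by -0.36 and the immunoglobulin light chain gene Igkc, which on average made up most of the sum in members, by 3.31, neither passing (edgeR adjusted p = 0.342 and 0.183). With both sets matched Cd79a, Cd79b and Ms4a1 were called lower (-1.27, -1.22 and -1.36, edgeR adjusted p = 0.0086, 0.0078 and 0.0097). Igkc then differed by -0.10 (adjusted p = 0.982). Of 678 genes called between the sets, 549 were also called after cells with no T cell receptor or CD3 UMI, or with a UMI of 5 macrophage or B cell genes, had been left out.

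**Figure D3:**
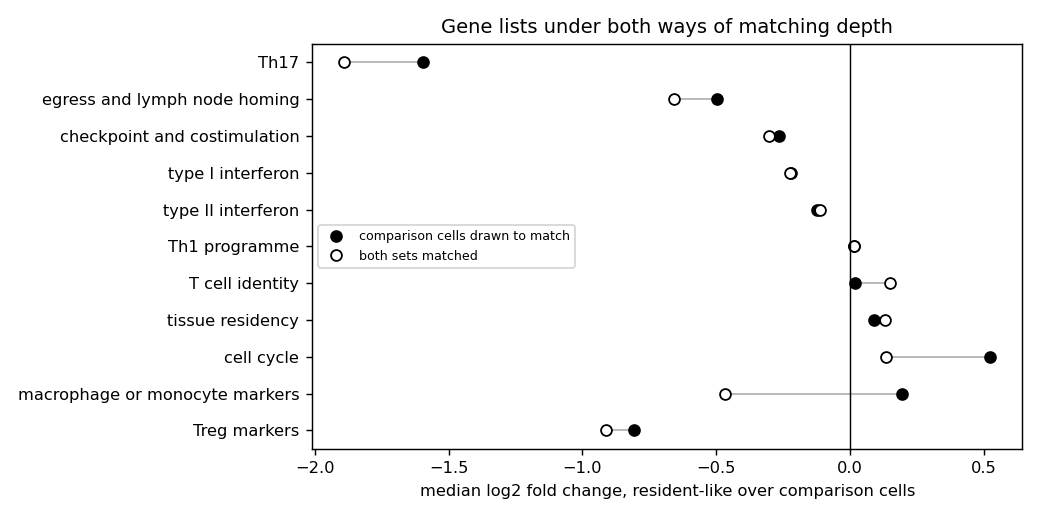
Median log2 difference, resident-like cells minus comparison cells (x axis), for each gene list (y axis), with filled points for comparison cells drawn to match and open points for both sets matched. The Th17 list lies farthest to the left at -1.60, the egress list at -0.50 and the regulatory T cell list at -0.81, while residency (0.09) and Th1 (0.01) lie near 0.

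The design asks whether loss of ST2 in regulatory T cells goes with a change in these cells. After thinning to 2000 UMIs, resident-like cells made up 1.24%, 0.845% and 1.04% of retained cells in knockout 1, 2 and 3 (Wilson 95% intervals 0.934 to 1.63, 0.673 to 1.06 and 0.782 to 1.38) and 1.24% and 0.895% in control 1 and 2 (1.03 to 1.49 and 0.702 to 1.14). The groups overlapped. The mean was 1.04% ± 0.196 in knockout and 1.07% ± 0.245 in control libraries (SD, n = 3 and 2), a difference of -0.028 percentage points (exact permutation test, two-sided, p = 0.8, adjusted over 2 tests 0.8). Without thinning the shares were 17.4%, 7.22% and 10.0% in knockout libraries and 22.9% and 6.85% in controls, highest in control 1 and knockout 1, where retained cells were deepest. Intervals cover counting error only.

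As a share of Cxcr6+ CD4 cells, resident-like cells made up 6.64%, 3.38% and 6.24% in knockout 1, 2 and 3 (Wilson 95% intervals 5.05 to 8.68, 2.70 to 4.22 and 4.73 to 8.21) and 10.4% and 6.65% in control 1 and 2 (8.77 to 12.4 and 5.25 to 8.39). The groups did not overlap, with knockout 1 and control 2 nearly equal, and they did overlap in each of the 7 alternatives, among them thinning to 1000 or 3000 UMIs and other cell filters. The mean was 5.42% ± 1.78 in knockout and 8.55% ± 2.69 in control libraries (SD, n = 3 and 2), a difference of -3.13 percentage points (exact permutation test, two-sided, p = 0.2, adjusted 0.4). With 3 libraries against 2 the smallest p this test can give is 0.2. Without thinning the shares were 35.9%, 16.6% and 28.7% in knockout libraries and 56.0% and 26.0% in controls, and the groups overlapped. Thinning left out 335, 1618 and 832 retained cells under 2000 UMIs in the knockout libraries and 296 and 1816 in the controls.

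**Figure D4:**
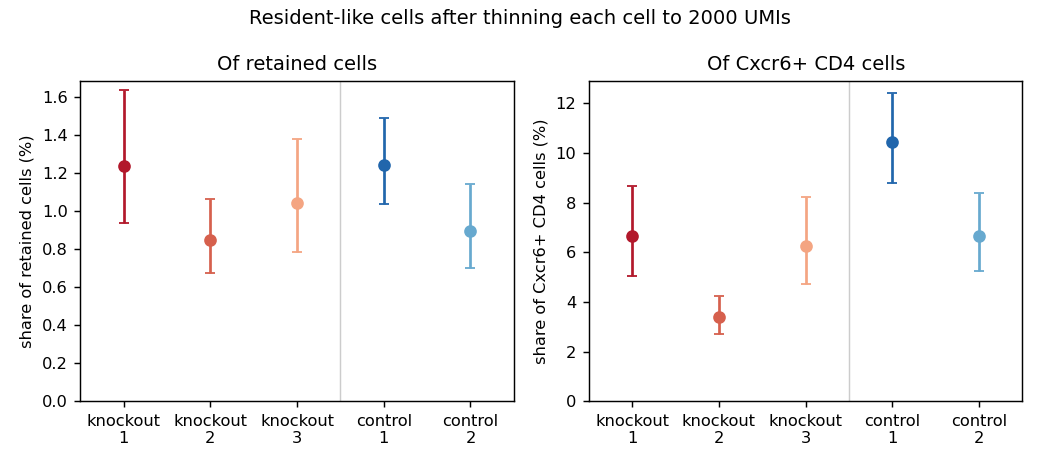
Share of resident-like cells after thinning to 2000 UMIs (y axis, percent, from 0), in 1 panel of all retained cells and in the other of Cxcr6+ CD4 cells, by library (x axis, knockout left of control), with Wilson 95% intervals. The groups overlap among retained cells (0.845 to 1.24% in knockout and 0.895 to 1.24% in control) and lie edge to edge among Cxcr6+ CD4 cells (3.38 to 6.64% in knockout and 6.65 to 10.4% in control), where they overlapped in each of the 7 alternatives.

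Within the resident-like cells, no gene passed edgeR's quasi-likelihood test between knockout and control (0% of 11892 tested, 660 at an unadjusted p under 0.05). DESeq2 called 58 genes, 54 higher and 4 lower in knockout. Its higher calls included Lyz2 of the macrophage list (0.57, DESeq2 adjusted p = 0.014). Mrc1 and Pf4, known from myeloid cells, were among them too (1.57 and 1.95, DESeq2 adjusted p = 9.6e-07 and 3.6e-04). DESeq2 was not run with cells carrying macrophage or B cell UMIs left out. Groups did not overlap for 2290 genes (19.3%). The gene with the largest difference among those named was Il1rl1 itself, at 47.1, 26.4 and 24.1 CPM in knockout 1, 2 and 3 and at 5.43 and 5.87 CPM in control 1 and 2. Knockout members averaged 32.5 ± 12.7 CPM and control members 5.65 ± 0.306 CPM (SD, n = 3 and 2), a log2 difference of 2.55 (SE 0.33, edgeR adjusted p = 0.207; DESeq2 1.10e-09). An Il1rl1 UMI was found in 29.5%, 16.9% and 10.6% of knockout members and in 3.49% and 2.91% of control members, although control 1 was the deepest library. The 3 knockout values thus lay above both control values in these cells, at which the Foxp3-driven Cre is not directed.

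Il2ra was at 33.6, 24.0 and 26.8 CPM in knockout members and 7.5 and 9.56 CPM in control members (1.77, SE 0.20, edgeR adjusted p = 0.181). Tnfrsf9, which encodes the costimulatory receptor 4-1BB, was at 20.9, 22.8 and 24.9 CPM in knockout members and 9.53 and 8.38 CPM in control members (1.33, SE 0.15, edgeR adjusted p = 0.181). Tnfrsf4 was at 75.3, 93.1 and 73.6 CPM in knockout members and 41.0 and 45.4 CPM in control members (0.91, SE 0.13, edgeR adjusted p = 0.297). Every knockout library was above both controls for these 3 genes, and none passed edgeR, while DESeq2 called all 3. Tnfrsf9 was named by rank, which required groups without overlap. Ikzf2 was at 170, 188 and 169 CPM in knockout members, against 131 and 115 CPM in control members (0.51, SE 0.10, edgeR adjusted p = 0.519). Cish, a feedback inhibitor of cytokine signalling, was at 138, 111 and 136 CPM in knockout members and 67.9 and 88.8 CPM in control members (0.73). In the regulatory T cell list 5 of 5 were above 0 (median 0.88), against 5945 of 11885 over all genes. Its summed level was 325 to 348 CPM in knockout members and 204 to 206 CPM in control members, while Foxp3 was at 0 by the choice of cells. The part of regulatory T cells with missed Foxp3 RNA in these values was not tested.

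**Figure D5:**
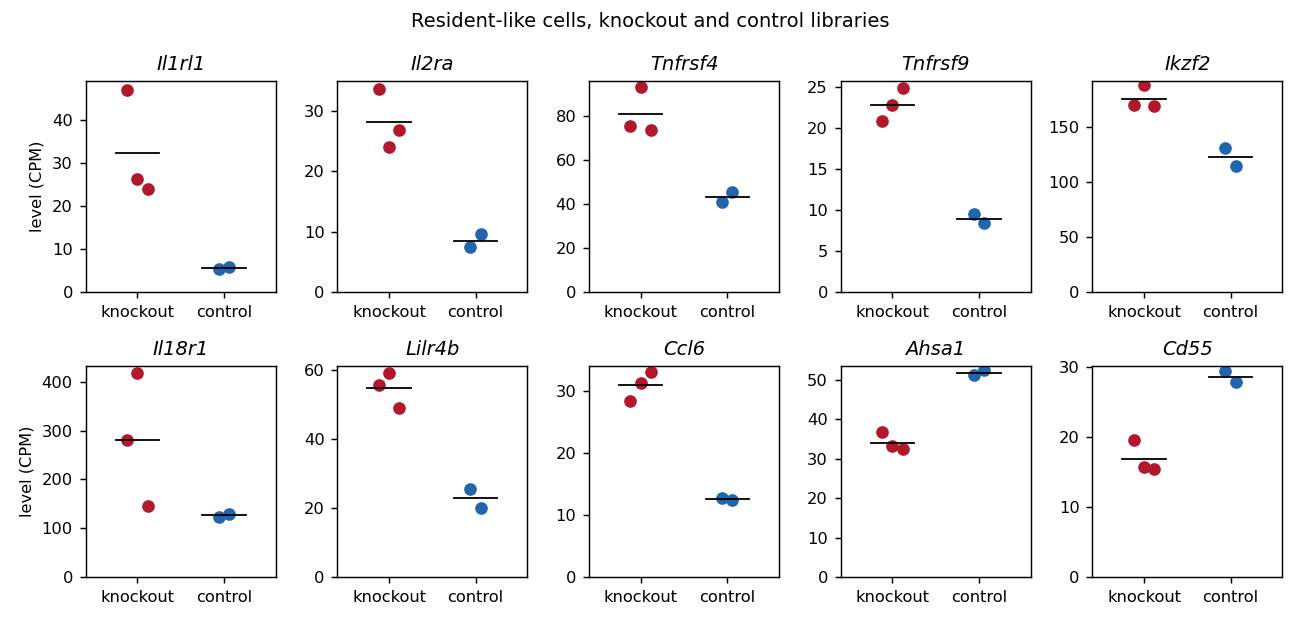
CPM in resident-like cells (y axis) of 10 genes by library, knockout left of control, with lines at the group means. Il1rl1 lies at 24.1 to 47.1 CPM in knockout and 5.43 to 5.87 CPM in control libraries, and Ahsa1 and Cd55 lie lower in knockout.

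Ccl6, a chemokine of myeloid cells, was at 28.4, 31.4 and 33.1 CPM in knockout members and 12.8 and 12.4 CPM in control members (1.29, SE 0.13, edgeR adjusted p = 0.181). Lilr4b, an inhibitory receptor, was at 55.7, 59.2 and 48.9 CPM in knockout members, against 25.5 and 19.9 CPM in control members (1.24, SE 0.15, edgeR adjusted p = 0.181), and its paralogue Lilrb4a, with which reads can be shared, at 54.7, 48.1 and 46.7 CPM in knockout members, against 26.0 and 24.6 CPM in control members (0.97). The scavenger receptor Msr1 was at 11.8, 11.8 and 15.1 CPM in knockout members and 4.29 and 4.19 CPM in control members (1.59). Groups without overlap were a condition of naming these 4 genes by rank, so the lack of overlap is no result for them. None passed edgeR, and DESeq2 called all 4 (adjusted p = 2.0e-08, 4.4e-08, 1.6e-06 and 3.9e-05 for Ccl6, Lilr4b, Lilrb4a and Msr1). Ccl6 and Msr1 are known from macrophages, whose list had 10 of 12 genes above 0 and none that passed, against 5945 of 11885 above 0 over all genes. The median of that list was 0.79, with 0.19 without control 1 and 1.75 without control 2. After cells with a UMI of 5 macrophage or B cell genes or with no T cell receptor or CD3 UMI had been left out, Ccl6 and Msr1 had too few counts to be tested, while Il1rl1, Il2ra, Tnfrsf9 and Lilr4b had log2 differences of 3.1, 2.03, 1.55 and 1.30 (Il1rl1 edgeR adjusted p = 0.237).

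On the other side of 0 were Ahsa1, a co-chaperone of HSP90, at 36.7, 33.2 and 32.5 CPM in knockout members, against 51.2 and 52.6 CPM in control members (-0.60, SE 0.10, edgeR adjusted p = 0.415), and Cd55, a complement regulator, at 19.6, 15.8 and 15.4 CPM in knockout members, against 29.5 and 27.8 CPM in control members (-0.76, SE 0.15, edgeR adjusted p = 0.519). Neither passed edgeR; both were among the DESeq2 calls. Cd55 differed by -0.18 after the other-cell droplets had been left out. The remaining genes named by rank were Armc2 (-0.95), Filip1l (-0.41), the interferon-inducible Ifi208 (-0.66) and the histone gene Hist2h3b (-2.48). Xcl1, at 54.6, 38.7 and 50.9 CPM in knockout members and 64.5 and 70.7 CPM in control members, differed by -0.49 without passing.

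Of the genes that set resident-like cells apart, Il2ra, Tnfrsf4 and Ikzf2 are given above, and several others differed little between genotypes. Chn2 differed by -0.12 and P2rx7 by 0.33. Klf2 was at 73.2, 71.5 and 108 CPM in knockout members and at 73.7 and 94.9 CPM in control members (0.00), and S1pr1 differed by -0.03. Tbx21 was at 125, 124 and 114 CPM in knockout members and 133 and 128 CPM in control members (-0.11). Ifng was at 40.2, 77.2 and 60.1 CPM in knockout members and 40.7 and 47.1 CPM in control members (0.44), with overlapping groups. The Th17 list had 8 of 8 genes above 0 (median 0.81), the egress list 1 of 16 (median -0.17), the checkpoint list 14 of 19 (median 0.31) and the Th1 list 16 of 23 (median 0.22). With 1 library left out the medians ran between 0.48 (without control 1) and 1.25 (without control 2) for Th17, -0.25 (without control 1) and -0.015 (without control 2) for egress, 0.28 (without control 1) and 0.49 (without knockout 3) for checkpoint and 0.05 (without knockout 2) and 0.28 (without knockout 1) for Th1 genes. No gene of these lists passed, and over all genes 5945 of 11885 were above 0 (median 0.00). Il18r1, at 282, 418 and 145 CPM in knockout members and 123 and 129 CPM in control members (1.16, SE 0.39, edgeR adjusted p = 0.823), starts 136 bases after the end of Il1rl1 on the same strand.

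Whether the genotypes differed more in resident-like cells than in comparison cells was tested as an interaction. None of 11803 genes passed edgeR (0%, 1114 at an unadjusted p under 0.05), and DESeq2 called 8. Nrp1, which encodes neuropilin-1, a receptor on thymic regulatory T cells, came nearest: it was at 145, 184 and 169 CPM in knockout members and 152 and 107 CPM in control members, against 155, 200 and 201 CPM in knockout comparison cells and 279 and 190 CPM in control comparison cells (0.70, SE 0.08, edgeR adjusted p = 0.061), and 0.84 after the other-cell droplets had been left out (adjusted p = 0.049). Comparison cells stood above members in all 5 libraries, most in the controls. Naming Nrp1 by rank required ratios that did not overlap between genotypes. For Il23r the interaction was 1.38 (SE 0.18, edgeR adjusted p = 0.066). For Il1rl1 it was 1.37 (SE 0.29, edgeR adjusted p = 0.265), and 1.90 without those droplets (adjusted p = 0.049): its level was 46.6, 26.1 and 23.6 CPM in knockout members and 5.36 and 5.77 CPM in control members, against 67.4, 49.2 and 34.6 CPM in knockout comparison cells and 27.3 and 11.2 CPM in control comparison cells. Il1rl1 was lower in members than in comparison cells of the same library in all 5 (-1.09, edgeR adjusted p = 0.029), a call lost without control 2 (-1.10, 0.0862) or knockout 3 (-1.21, 0.061), with -0.69 (0.0020) without control 1. The other genes named by rank were Igfbp7 (2.09), Fgf13 (0.71), Ccnb1 (-1.46), Apol7e (-0.59), Clec4n (-2.26) and Cep55 (-1.35), each with an edgeR adjusted p of 0.245 or 0.265. By list, 0 of 18 cell cycle genes had an interaction above 0 (median -0.80), and 13 of 16 egress genes did (median 0.33). Over all genes 5929 of 11796 did. With 1 library left out the medians ran between -1.40 and -0.11 for cell cycle and 0.17 and 0.37 for egress genes.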

How the data were processed

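The deposited count tables hold UMI counts per gene and cell barcode from 10x 3′ libraries. Per the file headers the software was Cell Ranger 8.0.0. The submitters' processing notes name mm10 and Seurat 5.1.0. No normalisation had been applied to these deposited counts. Symbols shared by several gene IDs (35) were summed. Members and gene lists were chosen with earlier results of these data known, so no list is independent support. No doublet caller was run; an alternative left out cells with no Cd3e, Cd3d or Trac UMI or with any of C1qa, Lyz2, Adgre1, Cd79a and Ms4a1.

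Counts were summed per library and set of cells and fitted with edgeR 4.0.16 (TMM, quasi-likelihood, low-count filter, R 4.3.3), with DESeq2 1.42.0 as an alternative. Shares came from cells thinned to 2000 UMIs, averaged over 100 draws, and were compared by exact permutation (scipy 1.17.1). Others tried were RLE factors, no low-count filter, at least 3 marker genes, cell limits of 200 genes and 20% or 1000 genes and 5%, thinning to 1000 or 3000 UMIs, other comparison cells, a replicate block and leaving out each library. The fits were also run on counts simulated with the same fixed spread for every gene. Real genes differ in spread, so that run is not used as support here.

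Named genes were the 12 of smallest p in each direction that passed with 1 sign in all libraries (genotype tests: up to 12, filled to 6 with genes that did not pass or overlap), leaving out genes of the choice, Fgl2, receptor segments, unnamed models, ribosomal, mitochondrial genes, Xist, Tsix and Y-linked transcripts and markers of other cell types, plus 30 genes always named; other genes were chosen from the lists or after their values were seen. Some genes that the rule or the lists name are not reported here. Gene positions follow GENCODE M21.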

Additional observations from a re-analysis of the deposited data

Results flagged for a closer look

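Of 74 named genes screened, 5 (6.76%) had a ratio of resident-like cells over comparison cells above 1 in every library of one genotype and below 1 in every library of the other, as had 570 of all 11803 genes tested (4.83%). Dst, Csgalnact1, Mecom and Slamf1 were named for the interaction, which required ratios without overlap between genotypes, so the 2 shares are not comparable. None of the interactions passed edgeR's quasi-likelihood test. Ccl6 had an interaction of 0.81 on the log2 scale (edgeR adjusted p = 0.265), at 28.1, 31.2 and 32.5 CPM in knockout members and 12.6 and 12.2 CPM in control members, against 21.3, 26.3 and 22.8 CPM in knockout comparison cells and 16.6 and 17.5 CPM in control comparison cells. Dst, which encodes the cytoskeletal linker dystonin, had 0.96 (adjusted p = 0.245), at 44.7, 69.0 and 53.7 CPM in knockout members and 24.1 and 52.7 CPM in control members, against 40.1, 57.3, 44.9, 47.9 and 69.3 CPM in comparison cells of knockout 1, 2 and 3 and control 1 and 2.

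Csgalnact1, a chondroitin sulfate enzyme, had 2.11 (edgeR adjusted p = 0.261), at 5.40, 6.42 and 7.06 CPM in knockout members and 3.80 and 2.14 CPM in control members, against 3.17, 5.47, 4.57, 13.7 and 3.56 CPM in comparison cells in the same order. Slamf1, a costimulatory receptor, had -0.40 (adjusted p = 0.265), at 164, 187 and 145 CPM in knockout members and 145 and 172 CPM in control members, against 175, 195, 148, 112 and 140 CPM in comparison cells. Mecom had a fitted -9.66 (adjusted p = 0.245), which is no bound, since both control comparison sets and the members of knockout 3 were at 0 and the highest value was 10.9 CPM, in comparison cells of knockout 2.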

How the results depend on the processing

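Genes called between resident-like and comparison cells numbered 678; the count was 1421 with both sets matched (490 shared), 1466 without the low-count filter, 120 with the gate applied after thinning, 110 against cells with 1 marker gene, and 178 to 609 with 1 library left out (178 without control 2, 268 without knockout 3, 446 without knockout 1, 461 without control 1). Other settings gave 489 to 995. Between genotypes the count of 0 became 58 with DESeq2, 514 without the filter and 0 to 3 with 1 library left out (3 without control 2); for the interaction, 8 with DESeq2, 8 without other-cell droplets, 372 without the filter and 0 to 216 (216 without control 2). Without the filter, very low counts enter the estimate of spread.

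The difference in the share of retained cells (-0.028 points) reversed to 0.021 without other-cell droplets, 0.215 at 3000 UMIs, and ran -0.202 to 0.145 with 1 library left out; that of Cxcr6+ CD4 cells ran -5.03 to -1.23. Values near 0 reversed: Itgae -0.046 with at least 3 marker genes and -0.042 with both matched (-0.011 to 0.27 by library); Prdm1 0.11 and 0.02 (-0.082 to 0.011); Ifng 0.013 with both matched (-0.50 to 0.19); Gzma -0.13 with at least 3 marker genes (-0.19 to 0.87). Csf2 was 0.10 against all comparison cells and 0.0096 with both matched (-0.92 to 0.40). Klrb1c was -0.091 with DESeq2, -0.11 with strict cell limits, -0.29 against all comparison cells and -0.48 against cells with 1 marker gene (0.05 to 0.25). Between genotypes, Filip1l was 0.11 with the gate after thinning (-0.50 to -0.31). The cause was not tested.

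With replicate number as a block, 0 genes were called between genotypes (972 at an unadjusted p under 0.05), while DESeq2, without the block, called 58. Same-numbered libraries correlated at 0.184 and -0.00887. No value for differently numbered libraries stands beside these, so they do not decide whether the numbers pair libraries. Nothing in the labels pairs them. Depth differed between libraries, with most UMIs per cell in control 1, and 5 libraries allow no permutation p below 0.2.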
